A study of Mus musculus with 6 samples.

Results

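The ErbB receptors and their ligands were followed in mammary tumors of JAM-A-/- and JAM-A+/+ mice. The family was taken as 10 named genes, the receptors Egfr, Erbb2, Erbb3 and Erbb4 and the ligands Areg, Nrg1, Hbegf, Tgfa, Ereg and Btc. Each gene was read from a probe set that the platform annotation pairs with its symbol alone, with the brightest on average to be taken where a gene had more than 1. The 9 genes found, 4 receptors and 5 ligands, had 1 probe set each, out of 19938 genes measured in this way. Areg is not among the genes of the annotation used and was not analysed here.

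There were 3 JAM-A-/- tumors (labelled JamA-, genotype MMTV-PyMT JAM-A KO, tumors 5333, 5346 and 5347) and 3 JAM-A+/+ tumors (labelled JamA+, genotype MMTV-PyMT, tumors 5369, 5370 and 5393). Both groups carry the polyoma virus middle T antigen (PyVmT) under the mammary tumor virus promoter, which is active mainly in mammary epithelium, and the JAM-A-/- group is null in all cells for F11r, the gene of the tight junction protein JAM-A. The methods name JAM-A+/+ littermates as controls. All tumors were taken at an early stage of growth, and neither age nor strain is stated for single arrays. Whole tumor RNA was hybridized to 1 array per tumor, so stroma and any adjoining tissue are part of each value, and in such bulk samples fewer cells of a type and less RNA per cell cannot be told apart.

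ErbB receptors are tyrosine kinases of the epithelial cell membrane that pair with each other when a ligand binds. EGFR binds EGF, TGF-alpha, amphiregulin and epigen, EGFR and ErbB4 both bind HB-EGF, betacellulin and epiregulin, and ErbB3 and ErbB4 bind the neuregulins. ErbB2 has no known ligand and acts as the partner of the others, while ErbB3 has little kinase activity of its own and recruits PI3-kinase. In the mammary gland amphiregulin and EGFR serve the growth of ducts, and ErbB4 serves lactation. Middle T engages Src, Shc and PI3-kinase from inside the cell, and thus shares partners with these receptors without needing a ligand.

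The deposited values are log2 expression values after RMA, a method that corrects background, brings the probes of all arrays to 1 distribution and gives 1 value per probe set. Values of different probe sets are not comparable with each other, so each gene is compared only with itself across tumors. Differences are JAM-A-/- minus JAM-A+/+ on the log2 scale. A gene is said below to have met the criteria when the group means differed at least 1.3-fold and the unadjusted p of limma was under 0.05. The adjusted p is that of Benjamini and Hochberg over all 35557 probe sets. F11r itself was 5.91, 5.55 and 6.53 in JAM-A-/- tumors and 10.1, 10.23 and 10.47 in JAM-A+/+ tumors (difference -4.27, adjusted p = 0.00667 from limma), so the deleted gene was low in each tumor labelled JamA-. That adjusted p was 0.0507, 0.0839, 0.0794 and 0.0576 without tumor 5333, 5369, 5370 or 5393. The labels name no batch and leave unsaid if each tumor is from its own mouse, so that p-values reflect how much these 6 tumors vary and nothing wider. The tissue label of tumor 5347, unlike its genotype, does not mention the lack of JAM-A.

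Of the 9 measured genes, Egfr and Nrg1 met the criteria higher and Btc lower in JAM-A-/- tumors. The adjusted p-values of the 9 from limma were 0.253 to 0.993, so none passed the threshold of 0.05, which 0.00502% of all genes did, F11r alone, and 3 of the 9 had an unadjusted p under 0.05, as did 8.16% of all genes. The criteria were met by 5.33% of the 19938 genes, by 4.73% higher and 0.592% lower, and by 8.3% of all probe sets. The groups did not overlap for 4 of the 9 genes, Egfr, Erbb2 and Nrg1 higher and Ereg lower, against 15% of all genes, 12.4% higher and 2.55% lower. The median difference over the 9 was 0.25, against 0.09 over all genes, and 5 of the 9 lay above 0, as did 71.8% of all genes. The share of all genes above 0 moved with the scaling. When the annotated probe sets alone were quantile-normalized, 50.6% of genes lay above 0, the median was 0.0022, and the criteria were met by 3.32% of genes, 1.8% higher and 1.52% lower. Under that scaling 2 of the 9 genes, Nrg1 and Btc, met the criteria, 5 lay above 0 and their median was 0.096. An exact permutation test of a single gene cannot go below p = 0.1 with 3 against 3 tumors, a value which the 4 genes without overlap reach.

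**Figure D1:**
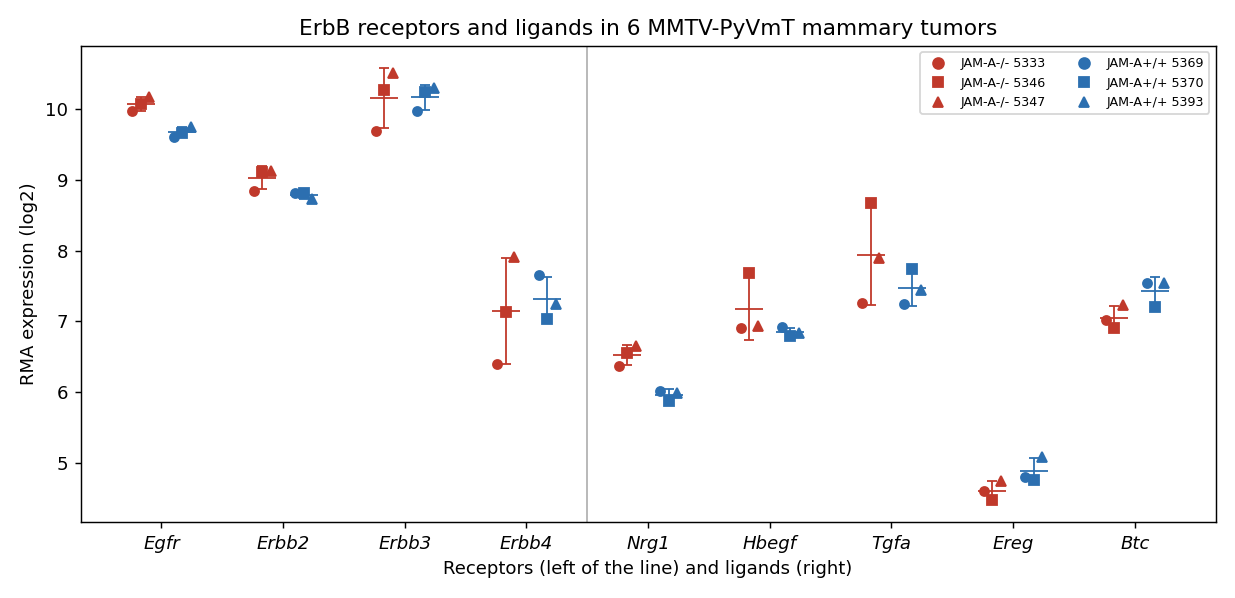
Log2 RMA values (vertical axis) of 4 ErbB receptors and 5 ligands (horizontal axis) in 3 JAM-A-/- tumors (red, left in each pair) and 3 JAM-A+/+ tumors (blue). Each symbol is 1 tumor, horizontal ticks are group means and bars 1 SD, and the groups lie apart for Egfr, Erbb2, Nrg1 and Ereg, widest for Nrg1 with 0.35 between the nearest tumors.

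The stretches before the start of transcription are shown for 3 genes that the results turn on and that the RefSeq promoter table holds, Egfr and Erbb2, whose groups lay apart, and Btc, which met the criteria in the other direction. Of the 10 named genes 6 are in that table, namely Egfr, Erbb2, Erbb4, Areg, Tgfa and Btc. Each run is the 250 bases before the start in RefSeq build GRCm38.p6, written 5' to 3' on the gene's own strand, with capitals for any match to the motifs named after them.
Egfr, chr11:16751953-16752202, plus strand: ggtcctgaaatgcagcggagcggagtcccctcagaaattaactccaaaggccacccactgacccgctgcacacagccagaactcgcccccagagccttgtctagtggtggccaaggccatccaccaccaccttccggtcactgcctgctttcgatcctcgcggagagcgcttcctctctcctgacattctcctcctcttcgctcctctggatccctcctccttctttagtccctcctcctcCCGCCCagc
Erbb2, chr11:98412234-98412483, plus strand: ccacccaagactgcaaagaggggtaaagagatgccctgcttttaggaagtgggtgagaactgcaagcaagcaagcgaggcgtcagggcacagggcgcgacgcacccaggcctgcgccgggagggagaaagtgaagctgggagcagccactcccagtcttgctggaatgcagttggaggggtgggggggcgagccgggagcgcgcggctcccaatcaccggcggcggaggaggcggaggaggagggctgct
Btc, chr5:91402995-91403244, minus strand: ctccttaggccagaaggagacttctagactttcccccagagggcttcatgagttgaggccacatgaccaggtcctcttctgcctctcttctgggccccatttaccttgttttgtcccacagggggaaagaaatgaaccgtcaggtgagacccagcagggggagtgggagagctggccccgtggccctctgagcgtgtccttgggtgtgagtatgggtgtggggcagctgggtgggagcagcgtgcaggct
These windows were searched on both strands for the GC box GGGCGG, the AP-2 motif GCCNNNGGC, the AP-1 motif TGANTCA, the palindromic estrogen response element, the TATA box TATAAA and the E-box CACGTG. The 1 match was a GC box on the minus strand of Egfr, 9 to 4 bases before the start, a motif that 32.7% of the 32851 windows of this length in the table hold. The others occur in 13.7% (AP-2), 6.75% (AP-1), 0.0639% (estrogen response element), 12.4% (TATA box) and 6.02% (E-box) of windows. The windows of Egfr, Erbb2 and Btc hold 60.8%, 66% and 59.6% of G and C, where the median over the table is 52.4%. The probe sets that gave the values lie along the transcripts, and nothing in these data measures the promoters.

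Among the receptors, Egfr was the one that met the criteria. It was 9.97, 10.08 and 10.17 in JAM-A-/- tumors and 9.61, 9.66 and 9.75 in JAM-A+/+ tumors. Every JAM-A-/- tumor lay above every JAM-A+/+ tumor, with 0.22 between the nearest of them. The means were 10.07 ± 0.10 in JAM-A-/- and 9.67 ± 0.07 in JAM-A+/+ tumors (SD, n = 3 each), a difference of 0.40 or 1.32-fold (95% interval 0.14 to 0.66, adjusted p = 0.337 from limma). The fold is close to the threshold, and the difference is 0.21 with either quantile normalization and no longer met the criteria, as also without tumor 5347 (0.35) or 5369 (0.37).

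Erbb2 was 8.85, 9.12 and 9.13 in JAM-A-/- tumors and 8.81, 8.81 and 8.73 in JAM-A+/+ tumors. The groups did not overlap, but only 0.04 separates tumor 5333 from the highest JAM-A+/+ tumors. The difference of 0.25 (95% interval -0.036 to 0.54, adjusted p = 0.498 from limma) did not meet the criteria, and it was 0.096 with quantile normalization over the annotated probe sets. A probe set that the annotation pairs with both Erbb2 and Sympk was left out because it names more than 1 gene.

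Erbb3 was 9.69, 10.28 and 10.52 in JAM-A-/- tumors and 9.97, 10.24 and 10.3 in JAM-A+/+ tumors. Tumor 5333 was the lowest and tumor 5347 the highest of all 6, so that the JAM-A-/- tumors enclosed the others. The means were 10.16 ± 0.43 in JAM-A-/- and 10.17 ± 0.18 in JAM-A+/+ tumors (SD, n = 3 each). Their difference was -0.0067, with a 95% interval of -0.51 to 0.50 that leaves room for a change in either direction, and it was 0.05 with centring on array medians, 0.23 without tumor 5333, and -0.22 and -0.23 with quantile normalization over all and over annotated probe sets.

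Erbb4 had the widest spread of the receptors, at 6.4, 7.13 and 7.91 in JAM-A-/- tumors and 7.66, 7.03 and 7.25 in JAM-A+/+ tumors. The order was that of Erbb3 within JAM-A-/- tumors, with 5333 low and 5347 high. The difference was -0.17 (95% interval -0.997 to 0.66, adjusted p = 0.883 from limma), and it was 0.21 without tumor 5333, 0.0067 without 5369 and -0.55 without 5347. Over the 4 receptors together the mean log2 value was 8.73, 9.15 and 9.43 in tumors 5333, 5346 and 5347 of the JAM-A-/- group and 9.01, 8.94 and 9.01 in the JAM-A+/+ tumors. The tumor with the lowest and the tumor with the highest receptor mean were thus both JAM-A-/-. The mean log2 over 9 markers of luminal epithelium was 10.58 in tumor 5333, 11.03 in 5346 and 11.06 in 5347, and in the JAM-A+/+ tumors it was 10.48, 10.77 and 10.8. Krt7, one of these markers, was highest of all 6 tumors in 5333 (10.07). Each of the other luminal markers was lowest of the JAM-A-/- tumors in 5333, with Krt8 at 12.17 and Epcam at 11.62 there. Tumor 5333 was also the lowest JAM-A-/- tumor in the mean of the fibroblast, macrophage, adipocyte and endothelial markers. The same held for the median of all annotated probe sets (6.82, against 6.89 in 5346 and 6.94 in 5347). JAM-A+/+ tumor 5369 was lower still in those means and in that median (6.73). In the means of basal, keratinocyte and T cell markers tumor 5333 was not the lowest JAM-A-/- tumor. None of the 9 luminal markers met the criteria, with Krt7 (0.34) and Cited1 (0.38) of smallest p, and Krt8 and Epcam were at 11.62 or above in every tumor. The part of epithelial content in the receptor values was not tested.

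Among the ligands, Nrg1, which encodes the neuregulins that bind ErbB3 and ErbB4, had the difference of smallest p of the family. It was 6.37, 6.56 and 6.65 in JAM-A-/- tumors and 6.02, 5.87 and 5.99 in JAM-A+/+ tumors. The JAM-A-/- tumors were all higher, by 0.35 at the nearest. The means were 6.53 ± 0.14 in JAM-A-/- and 5.96 ± 0.08 in JAM-A+/+ tumors (SD, n = 3 each), a difference of 0.57 or 1.48-fold (standard error 0.12, 95% interval 0.28 to 0.85, adjusted p = 0.253 from limma). It met the criteria with every test, scaling and left-out tumor tried, at 0.51 to 0.65, and fell short only where a fold of 1.5 was asked for. Nrg1 gives rise to many isoforms from separate promoters, which 1 probe set does not tell apart. Since peripheral nerve is a known source of neuregulin, Schwann cell markers are given beside it. Of the 3 measured, S100b met the criteria higher, where 4.73% of all genes did. It was 6.85, 8.54 and 7.92 in JAM-A-/- tumors and 6.83, 6.7 and 6.87 in JAM-A+/+ tumors. Sox10, which mammary epithelium can express too, and Mbp, the myelin basic protein, differed by 0.12 and 0.0033. The mean log2 over these 3 ran from 7.72 to 8.57 in JAM-A-/- and from 7.82 to 7.91 in JAM-A+/+ tumors. Their part in the Nrg1 value was not tested.

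Btc, the ligand betacellulin, was 7.02, 6.91 and 7.23 in JAM-A-/- tumors and 7.55, 7.2 and 7.55 in JAM-A+/+ tumors. The groups overlapped by 0.03, as JAM-A-/- tumor 5347 stood above JAM-A+/+ tumor 5370. The difference was -0.38 or 1.3-fold, at the threshold (95% interval -0.73 to -0.035, adjusted p = 0.432 from limma). It was -0.47 and met the criteria with quantile normalization over the annotated probe sets, but it did not meet them without tumor 5333, 5346, 5369 or 5393 (-0.36, -0.31, -0.32 and -0.32) or with centring on array medians (-0.32), nor with tests that use the spread of Btc alone. Ereg, the ligand epiregulin, was 4.6, 4.47 and 4.75 in JAM-A-/- tumors and 4.8, 4.76 and 5.09 in JAM-A+/+ tumors. Here the groups lay apart by 0.01, within the last decimal of the deposited values. Its difference of -0.28 (95% interval -0.60 to 0.047, adjusted p = 0.506 from limma) did not meet the criteria, and Ereg is the 1 family member below the level of 5.66 that marks the 40% dimmest probe sets.

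Tgfa and Hbegf, whose products are released from the cell surface to reach EGFR, did not meet the criteria. Tgfa was 7.26, 8.68 and 7.9 in JAM-A-/- tumors and 7.24, 7.74 and 7.45 in JAM-A+/+ tumors. Tumor 5346 was highest and tumor 5333 among the lowest, so that the groups overlapped. The difference was 0.47 (95% interval -0.30 to 1.24, adjusted p = 0.613 from limma). Hbegf was 6.91, 7.69 and 6.94 in JAM-A-/- tumors and 6.92, 6.8 and 6.84 in JAM-A+/+ tumors, and only tumor 5346 stood away from the rest. Its difference was 0.33 (95% interval -0.17 to 0.82, adjusted p = 0.587 from limma). Without tumor 5346 the differences were 0.10 for Tgfa and 0.072 for Hbegf. Without tumor 5333 that of Tgfa was 0.81 and met the criteria, and with array weights both met them (0.79 for Tgfa and 0.62 for Hbegf).

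Tumor 5346 also stood apart in markers of keratinocytes, cells that are known to make both ligands. Krt1, a keratin of the suprabasal epidermis, was 5.01, 9.36 and 4.65 in JAM-A-/- tumors and 5.7, 4.84 and 4.86 in JAM-A+/+ tumors. Krt10, its partner, was 6.14, 8.66 and 5.98 in JAM-A-/- tumors and 6.41, 5.83 and 5.88 in JAM-A+/+ tumors, and Lor, which encodes loricrin, was 6.45 in tumor 5346 and between 4.77 and 5.25 in the others. Ivl, the fourth marker measured, was lowest in tumor 5346, at 4.19. Lor and Ivl were on average below 5.66, among the 40% dimmest probe sets. The mean log2 over the 4 markers ran from 5.05 to 7.17 in JAM-A-/- and from 5.07 to 5.43 in JAM-A+/+ tumors, and none of the 4 met the criteria. Egfr and Nrg1 were not highest in tumor 5346. Without that tumor their differences were 0.40 and 0.55 (adjusted p = 0.558 and 0.434 from limma), and both met the criteria. The part of keratinocytes in the Tgfa, Hbegf, Egfr and Nrg1 values was not tested.

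**Figure D2:**
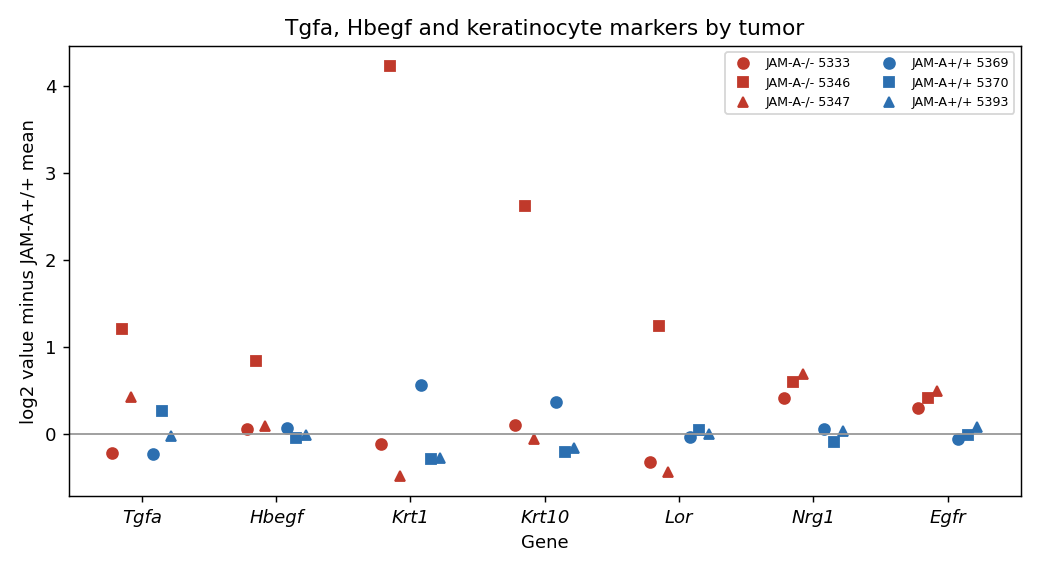
Log2 value minus the mean of the JAM-A+/+ tumors (vertical axis) for 2 ErbB ligands, 3 keratinocyte markers, Nrg1 and Egfr (horizontal axis) in 3 JAM-A-/- tumors (red, left in each group) and 3 JAM-A+/+ tumors (blue), 1 symbol per tumor. Tumor 5346 (red square) is highest for Tgfa, Hbegf, Krt1, Krt10 and Lor, while for Nrg1 and Egfr the 3 JAM-A-/- tumors lie together above the JAM-A+/+ tumors. The keratinocyte marker Ivl, lowest in tumor 5346 (4.19), is not drawn.

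The 5 other ligands of the family did not meet the criteria. Egf was 7.84, 7.56 and 8.86 in JAM-A-/- tumors and 8.25, 7.13 and 7.82 in JAM-A+/+ tumors, a difference of 0.35 with overlap and a 95% interval of -0.54 to 1.25. Nrg2, Nrg3 and Nrg4, further neuregulins, differed by 0.15, -0.047 and -0.027, and Epgn, which encodes epigen, by -0.21. The adjusted p-values of these 5 were 0.659 or above, and Epgn, Nrg3 and Nrg4 were on average below 5.66, among the 40% dimmest probe sets.

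**Figure D3:**
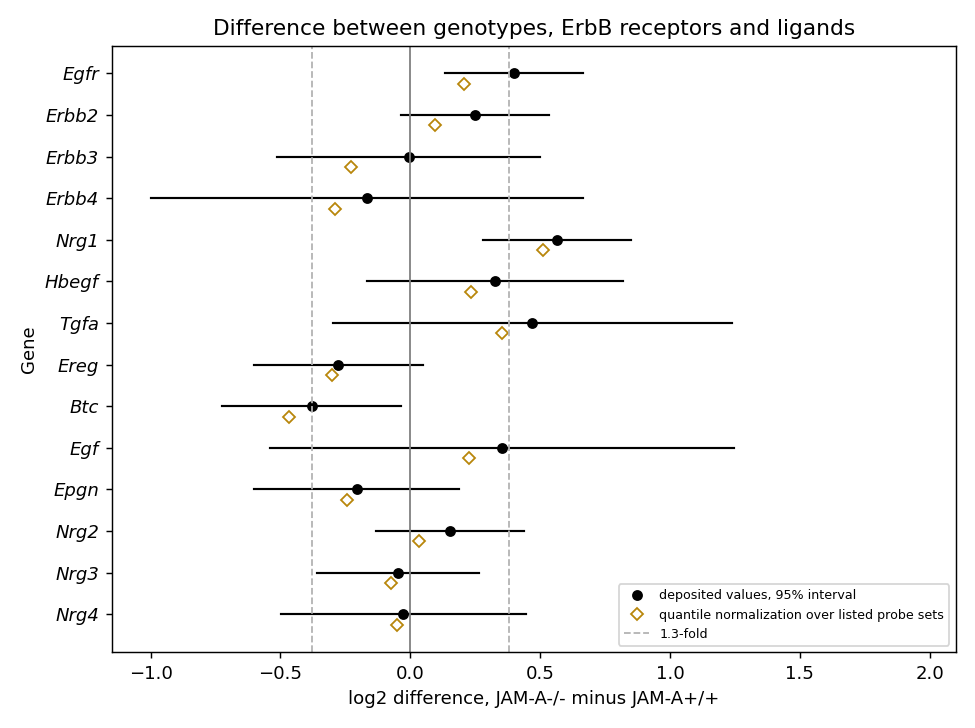
Log2 difference between genotypes (horizontal axis, JAM-A-/- minus JAM-A+/+) for the 9 measured family members and 5 other ligands (vertical axis). Black points and lines are the deposited values with 95% intervals of limma, open diamonds the differences after quantile normalization over annotated probe sets, and dashed lines mark 1.3-fold, past which Egfr, Nrg1, Tgfa and Btc lie, with Nrg1 farthest at 0.57.

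Some of these genes are neighbours on their chromosomes, and the neighbours were looked up after the members' values had been seen. Epgn, Ereg, Areg and Btc follow each other on chromosome 5, and the differences of the 3 measured ones were below 0 (-0.21, -0.28 and -0.38), with Btc alone meeting the criteria. Mthfd2l, just before them, differed by -0.037 and Parm1, just after them, by 0.44, and neither met the criteria. On chromosome 11, Erbb2 lies between Pgap3 (0.20) and Mien1 (0.25), and Grb7 follows, an adaptor that binds the receptor. Grb7 was 8.56, 8.59 and 8.88 in JAM-A-/- tumors and 8.31, 8.21 and 8.42 in JAM-A+/+ tumors, without overlap (difference 0.36, adjusted p = 0.416 from limma) but under the fold asked for. Of the 4 genes on each side of Erbb2, Stard3, which encodes a cholesterol transporter, met the criteria, as did 5.33% of all genes. Stard3 was 9.83, 9.5 and 9.66 in JAM-A-/- tumors and 9.14, 9.17 and 9.12 in JAM-A+/+ tumors (0.52, adjusted p = 0.269 from limma).

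Genes around the receptors were read from 7 lists by role. Of 90 genes, 88 were measured, 12 met the criteria higher and none lower, where 4.73% of all genes met them higher and 0.592% lower. The smallest adjusted p from limma was 0.208, so none passed, while 15 of the 88 had an unadjusted p under 0.05, against 8.16% of all genes. Their median difference was 0.18, against 0.09 over all genes. With quantile normalization over the annotated probe sets 5 of the 88 met the criteria, 4 higher and 1 lower, against 1.8% and 1.52% of all genes, and the median of the 88 was 0.041. The count of 12 was 33 without tumor 5333 and 6 without tumor 5369.

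Among genes of ligand shedding, the step that frees ligands from the membrane, 2 of 11 met the criteria higher, where 4.73% of all genes did. They were Adam12, a metalloprotease that can release HB-EGF, at 0.39, and Timp3, an inhibitor of ADAM17, at 0.66. Timp3 was 8.92, 9.99 and 9.3 in JAM-A-/- tumors and 8.48, 8.95 and 8.8 in JAM-A+/+ tumors, highest in 5346 and overlapping at tumor 5333. Neither gene met the criteria with quantile normalization over the annotated probe sets. Adam17 and Adam10, the main sheddases of these ligands, differed by 0.18 and 0.31, and by -0.026 and 0.087 under that scaling. Among receptor adaptors, 1 of 15 met the criteria higher, where 4.73% of all genes did. It was Pik3r3, a regulatory subunit of PI3-kinase, at 9.22, 8.96 and 9.7 in JAM-A-/- tumors and 8.27, 8.79 and 8.74 in JAM-A+/+ tumors (0.69). The groups lay apart, and Pik3r3 met the criteria with quantile normalization over the annotated probe sets as well.

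Among genes that restrain the receptors or take them from the surface, 2 of 20 met the criteria higher, against 4.73% of all genes, and none with quantile normalization over the annotated probe sets. Errfi1, whose product Mig6 binds and blocks the EGFR kinase and is itself induced by EGFR signalling, was 11.21, 11.29 and 11.29 in JAM-A-/- tumors and 10.73, 10.97 and 10.63 in JAM-A+/+ tumors. The groups lay apart (difference 0.49, adjusted p = 0.313 from limma), and it was 0.29 under that scaling. Ptpn1, a tyrosine phosphatase that acts on EGFR among other substrates, differed by 0.55. Of 8 measured receptor partners none met the criteria, with Flot2 and Flot1, membrane scaffold proteins, of smallest p at 0.36 and 0.30. Muc1, a mucin that binds ErbB receptors, differed by -0.30, and by -0.45 with quantile normalization over the annotated probe sets, where it was the 1 pathway gene to meet the criteria lower.

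Of 17 genes known to respond to ERK, a pathway downstream of the receptors and of middle T alike, 5 met the criteria higher, Dusp6 (0.92) and Dusp4 (0.97), phosphatases that act on ERK, Myc (0.48), Ccnd1 (0.45), which encodes cyclin D1, and Phlda1 (0.48), where 4.73% of all genes met them higher. All 17 lay above 0, where 71.8% of all genes did, with a median of 0.30. With quantile normalization over the annotated probe sets 15 lay above 0, where 50.6% of all genes did, and Dusp4 and Dusp6 met the criteria, where 1.8% of all genes met them higher. Dusp6 was 10.9, 11.19 and 11.24 in JAM-A-/- tumors and 10.46, 10.1 and 10.02 in JAM-A+/+ tumors, with the groups 0.44 apart. For Dusp4 the groups overlapped, as JAM-A-/- tumor 5333 (8.28) lay below JAM-A+/+ tumor 5393 (8.42). Egr1 (0.30), Fos (0.043), Ier3 (0.51) and Fosl1 (0.093, on average below 5.66) did not meet the criteria. Dusp5 (0.18) and the Spry, Spred and Etv genes of the list, from 0.06 for Spred1 to 0.32 for Etv4, did not meet them either. The list means ran from 8.69 to 9.16 in JAM-A-/- and from 8.54 to 8.78 in JAM-A+/+ tumors.

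Of 12 transcription factors and hormone-related genes tied to ErbB or Areg expression, 2 met the criteria higher, where 4.73% of all genes did. Tfap2b, an AP-2 factor, was 9.71, 10.03 and 10.17 in JAM-A-/- tumors and 7.68, 9.03 and 8.84 in JAM-A+/+ tumors (1.45, adjusted p = 0.258 from limma), with tumor 5369 far below the other JAM-A+/+ tumors. Tfap2a and Tfap2c, the other AP-2 factors in the list, differed by -0.03 and 0.10. Esr1, the estrogen receptor, through which estrogen induces amphiregulin in the mammary gland, was 7.44, 7.56 and 7.51 in JAM-A-/- tumors and 7.15, 7.01 and 7.21 in JAM-A+/+ tumors. Its difference of 0.38 was 0.29 with quantile normalization over the annotated probe sets and then did not meet the criteria. Pgr, a target of this receptor, differed by 0.22 and Greb1, also in the list, by 0.057, both with overlap. Pgr and Greb1 were on average below 5.66, among the 40% dimmest probe sets, and an effect of Esr1 on them was not tested.

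**Figure D4:**
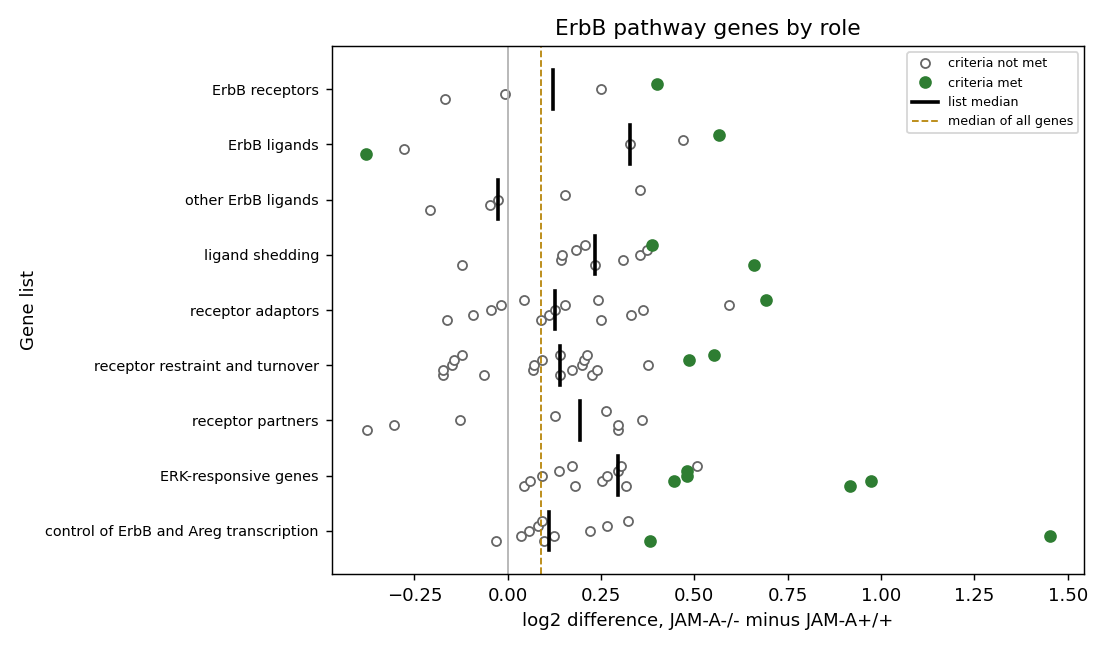
Log2 difference between genotypes (horizontal axis, JAM-A-/- minus JAM-A+/+) of each measured gene in 9 lists by role (vertical axis). Filled points met the criteria, black bars are list medians and the dashed line is the median of all genes (0.09), and of the ErbB and pathway genes only Btc met the criteria on the lower side.

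Some markers of other cells in whole tumors met the criteria, and none passed the adjustment over all probe sets. Over all genes 4.73% met the criteria higher and 0.592% lower. Of 9 basal and myoepithelial markers, Acta2 (0.90) and Cnn1 (0.44) met the criteria higher, while Krt5 and Krt14, the keratins that define these cells, differed by 0.083 and 0.01. Cnn1 was on average below 5.66, among the 40% dimmest probe sets. Of 7 fibroblast markers, Col1a2 (0.58) and Pdgfra (0.45) met them higher, with list means of 9.71 to 10.23 in JAM-A-/- and 9.19 to 9.98 in JAM-A+/+ tumors. Pecam1 (0.60) of 5 endothelial and Acta1 (1.31) of 5 skeletal muscle markers met them higher, while Emcn (0.44) and Myh4 (1.33), next by p in these lists, did not. Muscle list means ran from 7.57 to 8.55 in JAM-A-/- and from 6.44 to 8.04 in JAM-A+/+ tumors. The other fibroblast markers, Col3a1 (0.45), Col1a1 (0.34), Dcn (0.19), Fap (0.06) and Lum (-0.037), did not meet the criteria. None of 6 adipocyte, 6 macrophage or 4 T cell markers met the criteria, the smallest p in each list being that of Lep (0.16), Itgam (0.26) and Cd4 (0.21). Of these, Lep and Cd4 were also on average below 5.66. With quantile normalization over the annotated probe sets Pdgfra (0.31) and Acta1 (1.13) did not meet the criteria, while Acta2, Cnn1, Col1a2 and Pecam1 did. Stroma is a known source of Nrg1 and also carries EGFR, and the part of these cells in the members' differences was not tested.

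The genes whose values followed a member most closely over the 6 tumors were found for Erbb2 and for Nrg1. For Erbb2 they were Btbd1, Il1rapl2 and Inka2 (Pearson r = 0.994, 0.994 and 0.992 over 6 tumors), and for Nrg1 they were Skp1, Upp2 and Fam136a (r = 0.998, 0.996 and 0.994). They are the extremes of 19938 genes over 6 points that share their arrays and scaling, and are given as a description.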

How the data were processed

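Whole tumor RNA of 3 JAM-A-/- and 3 JAM-A+/+ mammary tumors was hybridized to Affymetrix mouse whole-transcript gene arrays. The deposited log2 values were made by the authors with RMA in Affymetrix Expression Console 1.1, per the labels, and are rounded to 2 decimals. Filters and settings are not stated in the sources used here. Arrays carry no read depth, and their number limits the precision. Groups were taken from the titles. Any 2 arrays correlated at 0.979 to 0.991 and none were identical.

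All 35557 probe sets were fitted with limma 3.58.1 in R 4.3.3 (lmFit and eBayes with default settings, no covariate, two-sided, Benjamini-Hochberg adjustment). The annotation pairs 21789 probe sets with 1 symbol, 1621 with several, and leaves 12147 unnamed here. Single symbols were updated through gene IDs for 21698 of them with the RefSeq table of GRCm38.p6, used for names and gene order. The fit was tested on simulated data. Alternatives were 2 tests on each probe set's own spread, array weights, a robust prior with an intensity trend, quantile normalization over all or annotated probe sets, the mean of a gene's probe sets (identical here), median centring, leaving out the 40% dimmest probe sets, a fold of 1.5 and leaving out each tumor.

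The members and lists were chosen with earlier results of these data known. Genes named in the text are F11r, the family, the other ligands, up to 4 genes of each pathway list that met the criteria or else 2 by smallest p, up to 2 markers of each cell type, and the 3 genes most like Erbb2 and like the member of smallest p. Dusp4, Muc1, the chromosomal neighbours, and genes given as reference points of a list were added after their values were seen. The pathway reference points were Adam17, Adam10, Egr1, Fos, Ier3, Fosl1, Dusp5, the Spry, Spred and Etv genes, Tfap2a, Tfap2c, Pgr and Greb1. The marker reference points were Krt5, Krt14, Krt8, Epcam, and further keratinocyte, Schwann cell and fibroblast markers.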

Additional observations from a re-analysis of the deposited data

How the results depend on the processing

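Nrg1 kept its direction and met the criteria under 15 of 16 alternatives, Egfr under 11 and Btc under 8, and the direction of all 3 held throughout. The 16 include the mean of a gene's probe sets, which could not differ from the main result because each member has 1 probe set. That alternative is counted as met for all 3, so each of these counts, and the 16, include it although it checks nothing. Btc fell short under 8 alternatives. The number of members meeting the criteria, 3, was 5 with array weights, where Tgfa and Hbegf were added, 0 at a fold of 1.5, and 1 to 3 with 1 tumor left out, 1 without tumor 5369. Erbb3, at -0.0067, turned to 0.026 in the fit that weights arrays, 0.05 with median centring and 0.23, 0.028 and 0.058 without tumor 5333, 5370 or 5393, within a range of -0.185 to 0.23 with 1 tumor left out. Erbb4, at -0.17, turned to 0.21 without tumor 5333 and 0.0067 without tumor 5369, within a range of -0.55 to 0.21. The 12 pathway genes were 7 and 6 with the equal-variance and Welch tests, 20 with array weights, 6 after quantile normalization of all and 5 of annotated probe sets, 5 at a fold of 1.5, and 6 to 33 with 1 tumor left out, 33 without tumor 5333 and 6 without tumor 5369. Over all probe sets 2952 became 1471 and 1082 with those tests, 817 with quantile normalization over annotated probe sets, which changes both the scaling and the number tested, 1274 at a fold of 1.5, and 2040 to 5016 with 1 tumor left out, the highest without tumor 5333. F11r stayed at -4.27 with the equal-variance and Welch tests but its adjusted p was 0.453 and 0.735, and with 1 tumor left out it was -4.54 to -4.05, with an adjusted p of 0.0507 to 0.0839 without tumor 5333, 5369, 5370 or 5393. On the same 19938 genes that scaling moved the count from 1062 (944 higher, 118 lower) to 662 (359 higher, 303 lower). For the other changes the cause was not tested. No paired analysis was possible because the tumor numbers are not shared between groups. With 3 tumors a group, the 95% interval of every measured member includes a 1.3-fold change in at least 1 direction.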
